A study of Clonorchis sinensis with 4 samples.

Results

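The entries described here are the small RNAs that the authors class as piRNAs and assign to 1 LTR/Gypsy retrotransposon locus of the Chinese liver fluke Clonorchis sinensis, on the + strand of scaffold DF143974.1 from 133707 to 136377 (coordinates as deposited, 2671 bases). They were taken by the name of the locus in the description of each entry. The tables of eggs, metacercariae and adult worms list 648 such entries together, of 5927 piRNA entries in all, and the table of extracellular vesicles lists 40 of 208. The locus was chosen by its tag totals and shares in these libraries, so those values are given as a description that tests nothing. The sequence, length and position of single entries, and the rest of the scaffold, were not analysed here.

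The series holds 4 small RNA libraries made from Trizol-extracted total RNA. There was 1 library of eggs, 1 of metacercariae, which are larvae encysted in fish, 1 of adult worms, which live in bile ducts, and 1 of vesicles secreted by adults. The labels name no strain, host, age or number of pooled animals. No group has a replicate, no test was run, and every difference below is one between single libraries. Intervals are exact at 95% and cover the counting error of tags only, and since tags carried no molecular identifiers they cannot be taken as independent molecules.

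In animals that have them, piRNAs are small RNAs bound by proteins of the Piwi clade. They are best known from germ cells, where they silence transposons. Gypsy elements are retrotransposons with long terminal repeats, copied through RNA, and they are a common source of such small RNAs in flies. Surveys of parasitic flatworm genomes did not find a Piwi-clade protein, and transposon-derived small RNAs of schistosomes have been assigned to other Argonautes. The word piRNA is therefore used below as the authors' class name.

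All piRNA entries of the 4 tables were assigned to LTR/Gypsy elements, spread over 135 loci in eggs, 143 in metacercariae and 161 in adults, and over 54 in the smaller vesicle library. In the order eggs, metacercariae, adults and vesicles, the piRNA class held 98662, 126386, 177879 and 5977 tags, or 0.480%, 0.617%, 0.917% and 0.253% of the annotated tags. The listing minimum of 10 tags was 0.487, 0.488, 0.515 and 4.24 reads per 1000000 annotated tags, a unit written below as RPM of annotated tags. RPM of piRNA tags is the same with the piRNA class as the total. An unlisted entry can hold up to 9 tags.

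Tags of the locus numbered 14915 in the egg library, 12230 in that of metacercariae, 22873 in that of adults and 1025 in that of vesicles. It ranked first among the loci in eggs, adults and vesicles and second in metacercariae, behind the Gypsy locus on scaffold DF142881.1. Its share of piRNA tags was 15.1% in eggs (14.9 to 15.3), 9.68% in metacercariae (9.51 to 9.84), and 12.9% in adults (12.7 to 13.0). In vesicles it was 17.1% (16.2 to 18.1). Among the stages the share was largest in eggs and smallest in metacercariae. In RPM of annotated tags the level was 726 in eggs (714 to 738), 597 in metacercariae (586 to 608), and 1179 in adults (1164 to 1194), with 434 in vesicles (408 to 462). On this scale adults stood highest and eggs second, and the piRNA class as a whole was a larger part of the adult library than of the others.

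**Figure D1:**
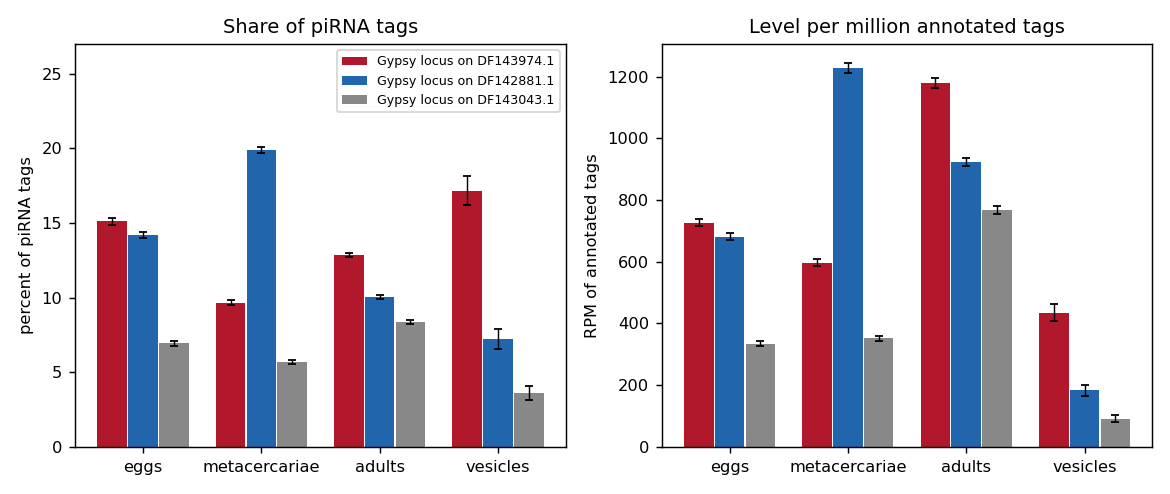
Share of piRNA tags (left, percent) and RPM of annotated tags (right) of the locus on DF143974.1 and of the Gypsy loci on DF142881.1 and DF143043.1 in the 4 libraries, with bars for the single library of each group and error bars for the exact 95% counting interval. The locus on DF143974.1 has its highest share in vesicles over all listed entries (17.1%) and its highest RPM in adults (1179), while DF142881.1 peaks in metacercariae on both scales. Over entries of at least 50 tags the vesicle share was 7.47%, the lowest of the 4 libraries, but few vesicle entries pass that cut.

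The order of eggs and adults depended on the scale. Eggs over adults, the ratio was 1.18 per piRNA tag (1.15 to 1.20) and 0.616 per annotated tag (0.603 to 0.629), and it was 0.895 with TMM factors and 0.988 with median-of-ratios size factors over piRNA entries. Metacercariae lay below adults on every scale tried, with a ratio of 0.753 per piRNA tag (0.736 to 0.769), 0.506 per annotated tag (0.495 to 0.518), 0.650 with TMM and 0.691 with size factors. Eggs lay above metacercariae on the same 4 scales, at 1.56 (1.53 to 1.60), 1.22 (1.19 to 1.25), 1.38 and 1.43.

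The total of piRNA tags outside the locus, per annotated tag, had a ratio of 0.510 for eggs over adults (0.506 to 0.515) and 0.697 for metacercariae over adults (0.692 to 0.703). Scaled to those outside tags, the locus was 1.21-fold higher in eggs than in adults (1.18 to 1.23), 1.66-fold higher in eggs than in metacercariae (1.62 to 1.70) and at a ratio of 0.726 in metacercariae over adults (0.710 to 0.742). These ratios restate the shares by which the locus was chosen.

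The other 2 Gypsy loci with the most piRNA tags had stage patterns of their own. The locus on DF142881.1 (+ strand, 693483 to 694702) held 14.2% of the piRNA tags of eggs, 19.9% of those of metacercariae and 10.1% of those of adults, with a metacercaria over adult ratio of 1.98 per piRNA tag (1.94 to 2.02) against 0.753 at DF143974.1. On DF143043.1 (- strand, 510899 to 512225) the shares were 6.95%, 5.70% and 8.38%, and the ratio was 0.680 (0.661 to 0.699). The locus on DF143974.1 is the longest of the 3, at 2.671 kb against 1.22 and 1.327 kb. Per kb it held 272 RPM in eggs, 223 in metacercariae and 441 in adults, while DF142881.1 held 559, 1007 and 756, and DF143043.1 held 252, 265 and 579. The first rank by tags in eggs and adults was therefore not a first rank per length.

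Tags were spread over many entries. Eggs listed 431 entries of the locus, metacercariae 386 and adults 508, which were 13.5%, 10.0% and 11.1% of the piRNA entries of each stage. At a common minimum of 101 RPM of piRNA tags, which is 10 tags in eggs, the numbers became 431, 306 and 328. All piRNAs gave 3189, 3111 and 2677 at that minimum. In RPM of annotated tags the listing minimum was already close to equal in the 3 stages, and on that scale adults listed the most entries. The count per entry ran from 10 to 495 with a median of 20 in eggs, from 10 to 333 with a median of 20 in metacercariae and from 10 to 643 with a median of 24 in adults. At the edge of the listing, 36, 31 and 27 entries held exactly 10 tags.

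The most abundant entry held 3.32% of the locus tags in eggs (3.04 to 3.62), 2.72% in metacercariae (2.44 to 3.03) and 2.81% in adults (2.60 to 3.03). The top 10 entries held 17.3% in eggs (16.7 to 17.9), 15.8% in metacercariae (15.1 to 16.4) and 15.0% in adults (14.6 to 15.5). It took 68 entries in eggs, 72 in metacercariae and 75 in adults to reach 50% of the tags. The inverse Simpson index, the number of equally abundant entries with the same sum of squared tag shares, was 155, 172 and 186. The index is not evenness alone, since it also depends on the number of listed entries, which was 431, 386 and 508. At DF142881.1 it was 142, 261 and 227, and at DF143043.1 it was 151, 168 and 213. The locus thus had no dominant small RNA in any stage. Entries of at least 100 tags numbered 27 in eggs, 15 in metacercariae and 52 in adults.

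**Figure D2:**
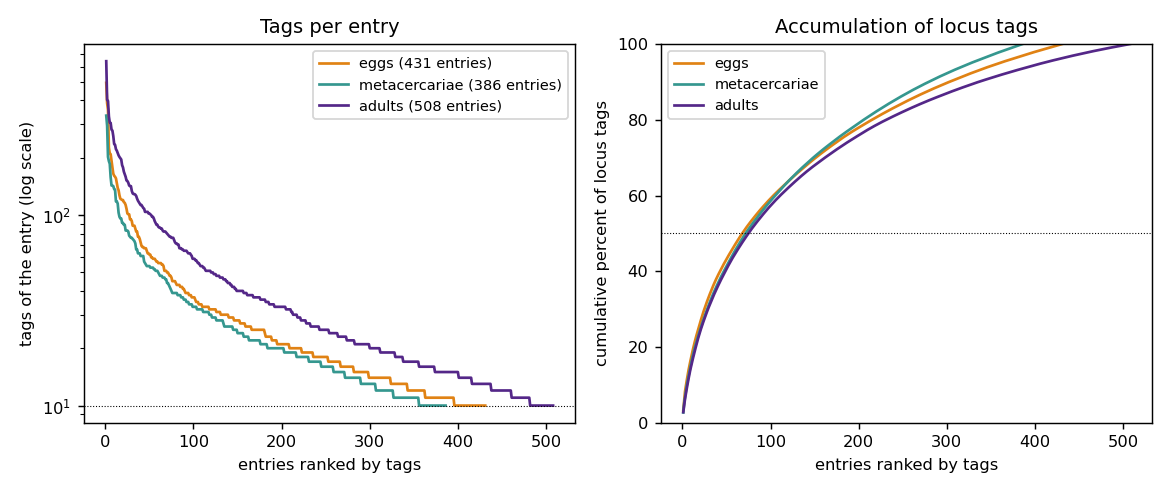
Tags of each entry of the locus against its rank on a log scale (left) and the cumulative percent of the locus tags (right), with 1 line per stage library and dotted lines at 10 tags and at 50%. The 3 cumulative lines cross 50% at 68, 72 and 75 entries and run close together.

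Most tags came from entries shared by the stages. Of the 648 entries, 262 (40.4%) were listed in all 3 stages, 153 (23.6%) in 2 and 233 (36.0%) in 1. Outside the locus the shares were 34.2%, 26.4% and 39.3% of 5279 entries. The 262 shared entries held 80.1% of the locus tags of eggs, 82.5% of those of metacercariae and 77.9% of those of adults, against 81.5%, 72.4% and 70.9% for shared entries outside the locus.

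Entries listed in 1 stage only were 70 in eggs, 49 in metacercariae and 114 in adults, and they held 6.97%, 5.50% and 8.11% of the locus tags of their stage. As a share of the locus entries this was 10.8%, 7.56% and 17.6%, against 6.74%, 13.4% and 19.2% outside the locus. The egg entries with the most tags were novel_pir3648, novel_pir3989 and novel_pir4020, with 32 tags each. In metacercariae they were novel_pir3671 with 28 tags, novel_pir4178 with 24 and novel_pir3632 with 22. In adults they were novel_pir4230 with 42 tags, novel_pir4121 with 40 and novel_pir3894 with 36. Since up to 9 tags go unlisted, listing in 1 stage does not show absence from the others.

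**Figure D3:**
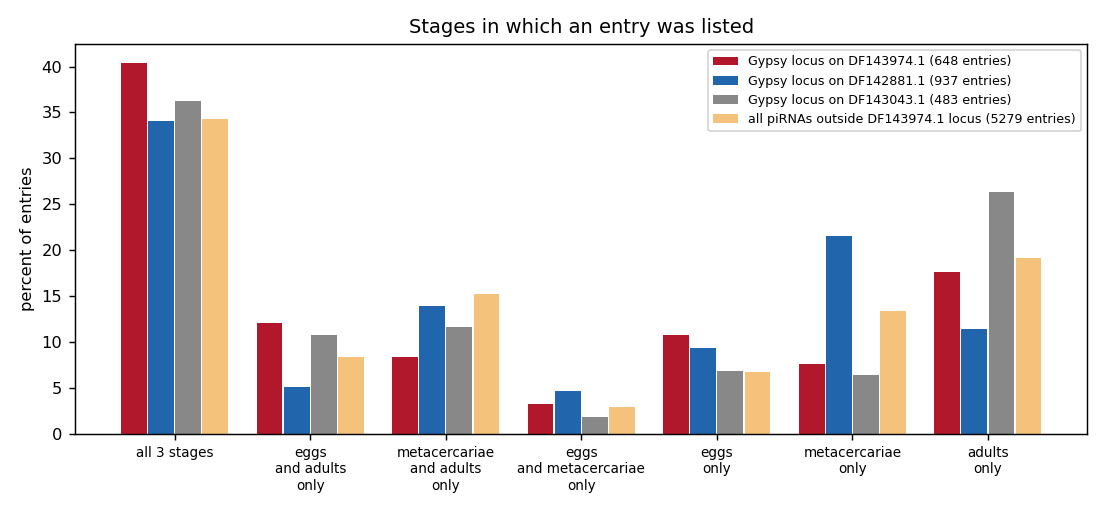
Percent of entries by the stages in which they were listed, for the locus on DF143974.1, the loci on DF142881.1 and DF143043.1 and all piRNAs outside the DF143974.1 locus, which include the other loci. At DF143974.1, 40.4% of 648 entries were listed in all 3 stages and 7.56% in metacercariae only. The share in metacercariae only was 21.6% at DF142881.1 and 6.42% at DF143043.1.

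Entries novel_pir3967 and novel_pir4184 were among the first 3 of every stage. novel_pir3967 held 495 egg tags, 333 in metacercariae and 398 in adults, which were 5017, 2635 and 2237 RPM of piRNA tags. It was the first entry of eggs and metacercariae and the third of adults. novel_pir4184 held 387, 295 and 643 tags, or 3922, 2334 and 3615 RPM, and was first in adults and second in the other stages. These 2 were the only entries among the top 10 of every stage, and 25 were among the top 50 of every stage.

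Below them the ranking differed by stage. Metacercariae and adults shared 6 of their top 10 entries, eggs and adults 3 and eggs and metacercariae 2. In eggs the next were novel_pir3952 (357 tags, with 83 in metacercariae and 234 in adults), novel_pir3990 (226, with 63 and 148) and novel_pir4146 (211, with 66 and 143). All 3 had more tags in eggs than in adults although the adult library held more piRNA tags. In metacercariae the next were novel_pir3956 with 202 tags, novel_pir4001 with 192 and novel_pir3984 with 186. Eggs held 88, 156 and 67 tags of these, and adults 330, 212 and 218. In adults novel_pir4152 came second, with 402 tags against 127 in eggs and 82 in metacercariae, and novel_pir4080 was the fifth with 306, 122 and 143. Shared top entries, here and in the paragraph before, were counted for the locus alone. Whether other piRNAs share fewer or more is therefore not known. Pearson's r of log2 levels was taken over entries with at least 100 tags in both libraries together. For metacercariae and adults, eggs and adults, and eggs and metacercariae, it was 0.472, 0.232 and -0.0183 at the locus. Outside the locus it was 0.181, 0.338 and 0.0645. Choosing entries by the sum of both counts leaves out those low in both libraries, which lowers r. For eggs and metacercariae at the locus, 3 of the 64 entries were unlisted in 1 library. An r near 0 therefore cannot show that the levels of these stages are unrelated. Of their top 50 entries at the locus, the same pairs shared 36, 30 and 29.

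The size rule for a difference between stages asked for a fold of 4 or more in RPM of piRNA tags with a pseudocount of 1, listing in the higher library, and an interval of the ratio beyond 2-fold. Printed folds leave the pseudocount out. Unlisted entries were set to 9 tags, so a fold against one is written "at least". In eggs over adults, 28 of 599 locus entries were higher (4.67%) and 3 were lower (0.501%). Among all piRNA entries of these libraries 2.38% were higher and 0.754% lower, and at DF142881.1 36 of 735 were higher. The egg-high entries held 11.1% of the egg tags of the locus. Such entries held 6.35% of the egg tags among all piRNA entries, 10.2% at DF142881.1 and 4.96% at DF143043.1. The split moved with the setting, and no share among all piRNA entries was computed for the other settings. It was 12 higher and 8 lower under TMM factors, 16 and 5 under size factors, and 2 and 3 per annotated tag. Per annotated tag with a pseudocount of 0.01 RPM it was 3 and 36. On that scale the pseudocount of 1 RPM lies above the listing minimum of 0.487 RPM in eggs and 0.515 in adults. It thus shrinks the folds of scarce entries, so the counts per annotated tag reflect the pseudocount as well as the scaling. The listing limit also made the rule uneven, since 9 tags were 91.2 RPM of piRNA tags in eggs and 50.6 in adults, and 13 of the 28 were unlisted in adults.

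The entry novel_pir3977 held 139 egg tags, 17 in metacercariae and 13 in adults, and was 19.3-fold higher in eggs than in adults (10.9 to 37.1). novel_pir3982, with 161, 34 and 20 tags, was 14.5-fold higher (9.09 to 24.4). novel_pir3980, with 159, 50 and 33 tags, was 8.69-fold higher (5.94 to 13.0). novel_pir3977 and novel_pir3982 stayed counted under every scaling tried, and novel_pir3980 under all but the annotated total with a pseudocount of 1 RPM (ratio 4.55). Next were novel_pir3968, with 33 egg tags and unlisted in adults (at least 6.61-fold), and novel_pir3702, with 47 egg and 13 adult tags (6.52-fold). Both were counted with TMM and size factors and lost the call per annotated tag, at 3.46-fold and 3.42-fold.

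The 3 entries lower in eggs were novel_pir4200, novel_pir3639 and novel_pir3613. They held 12, 11 and 17 tags in eggs and 122, 104 and 134 in adults. Their folds were 5.64 (3.11 to 11.2), 5.24 (2.81 to 10.8) and 4.37 (2.63 to 7.73), and all 3 were counted under every scaling tried. In metacercariae they held 29, 16 and 29 tags, so novel_pir3639 was the only entry counted as higher in adults than in both other stages.

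In metacercariae over adults, 2 of 578 locus entries were higher (0.346%) and 11 lower (1.90%), against 3.04% higher and 1.42% lower among all piRNA entries. At DF142881.1 the same comparison gave 76 higher and 2 lower of 850, and at DF143043.1 2 higher (0.444%) and 15 lower (3.33%) of 450. The split at DF143974.1 became 1 and 18 with TMM factors, 1 and 12 with size factors, 0 and 4 per annotated tag, and 0 and 39 with the smaller pseudocount. Shares among all piRNA entries were again not computed for these settings. The higher entries were novel_pir3968, with 32 tags and unlisted in adults (at least 5.00-fold), and novel_pir3671, with 28 tags and unlisted in both other stages (at least 4.38-fold). Per annotated tag neither was counted, and novel_pir3671 was lost with TMM and size factors too.

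Of the 11 lower entries, novel_pir4114 held 178 tags in adults, 75 in eggs and 14 in metacercariae, 9.03-fold below adults (5.24 to 16.9). novel_pir4232 followed, with 142, 30 and 14 tags (7.21-fold, 4.16 to 13.5). Unlisted in metacercariae were novel_pir4054 (86 adult tags, at least 6.79-fold lower), novel_pir4173 (82 tags, at least 6.47-fold) and novel_pir3991 (71 tags, at least 5.60-fold). All 11 were counted as well with TMM and size factors. Per annotated tag with a pseudocount of 1 RPM, 3 of them were, and with 0.01 RPM all 11 were.

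Between eggs and metacercariae, 26 of 534 entries were higher in eggs (4.87%) and 3 lower (0.562%), against 2.46% and 1.71% among all piRNA entries. The split was 15 and 5 with TMM factors, 16 and 3 with size factors, 3 and 1 per annotated tag and 13 and 7 with the smaller pseudocount, also without shares among all piRNA entries. The 26 held 18.8% of the egg tags of the locus, and 10 of them were unlisted in metacercariae. Among all piRNA entries, those higher in eggs than in metacercariae held 8.9% of the egg tags. novel_pir4054 stood farthest apart, with 192 egg tags and none listed in metacercariae, at least 27.3-fold. It was followed by novel_pir3991 (101 egg tags, unlisted, at least 14.4-fold), novel_pir3977 (10.5-fold, 6.31 to 18.5), novel_pir4072 (54 and 10 tags, 6.92-fold) and novel_pir4114 (6.86-fold). Lower in eggs, and unlisted there, were novel_pir4203 (115 tags in metacercariae and 63 in adults, at least 9.98-fold), novel_pir4199 (55 and 43 tags, at least 4.77-fold) and novel_pir4161 (53 and 34 tags, at least 4.60-fold). Per annotated tag with a pseudocount of 1 RPM, novel_pir4072, novel_pir4114, novel_pir4199 and novel_pir4161 were not counted.

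**Figure D4:**
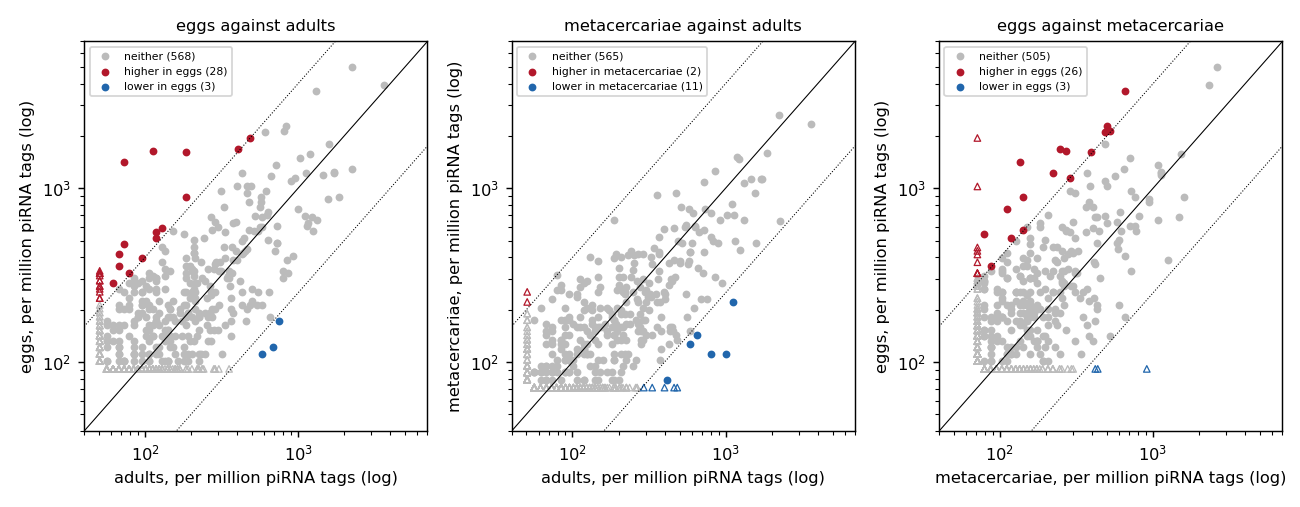
Each entry of the locus in 2 stage libraries, in RPM of piRNA tags on log axes, for the 3 pairs of stages. Red and blue points were counted as higher or lower (28 and 3, 2 and 11, 26 and 3), open triangles were unlisted in 1 library and are drawn at 9 tags, and dotted lines mark 4-fold.

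Over the 3 pairs, 54 of the 648 entries were counted at least once and 594 in none. The counts of this paragraph were made for the locus alone, so whether other piRNAs differ in them is not known. The pairs share libraries, so their counts are not independent. Entries higher in eggs than in both other stages numbered 12, entries lower in metacercariae than in both numbered 5, and no entry was higher in metacercariae than in both. novel_pir3968 was the only entry lower in adults than in both. novel_pir4054 belonged to both of the first groups.

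The ratio between stages varied from entry to entry. Among entries with at least 100 tags over the 2 libraries, Pearson's chi-square per degree of freedom, which is near 1 when entries differ by counting error alone, was 25.8 for eggs and adults (96 entries), 13.2 for metacercariae and adults (87 entries) and 26.9 for eggs and metacercariae (64 entries). The same value outside the locus was 19.4, 22.6 and 24.5. These values describe single libraries, and without replicates the part that separate libraries of 1 stage would give is not known. The middle 50% of entry ratios ran from 0.566 to 1.74 around a median of 1.10 for eggs over adults, from 0.514 to 1.11 around 0.731 for metacercariae over adults, and from 0.912 to 3.11 around 1.49 for eggs over metacercariae. Outside the locus the 3 medians were 1.04, 0.976 and 0.970. Per piRNA tag, 54 of the 96 entries were higher in eggs than in adults and 42 lower, against 288 and 265 of 553 outside the locus. In metacercariae 62 of 87 were lower than in adults, against 331 of 650 outside the locus. At DF143043.1 42 of 58 were lower in metacercariae, and at DF142881.1 15 of 104.

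**Figure D5:**
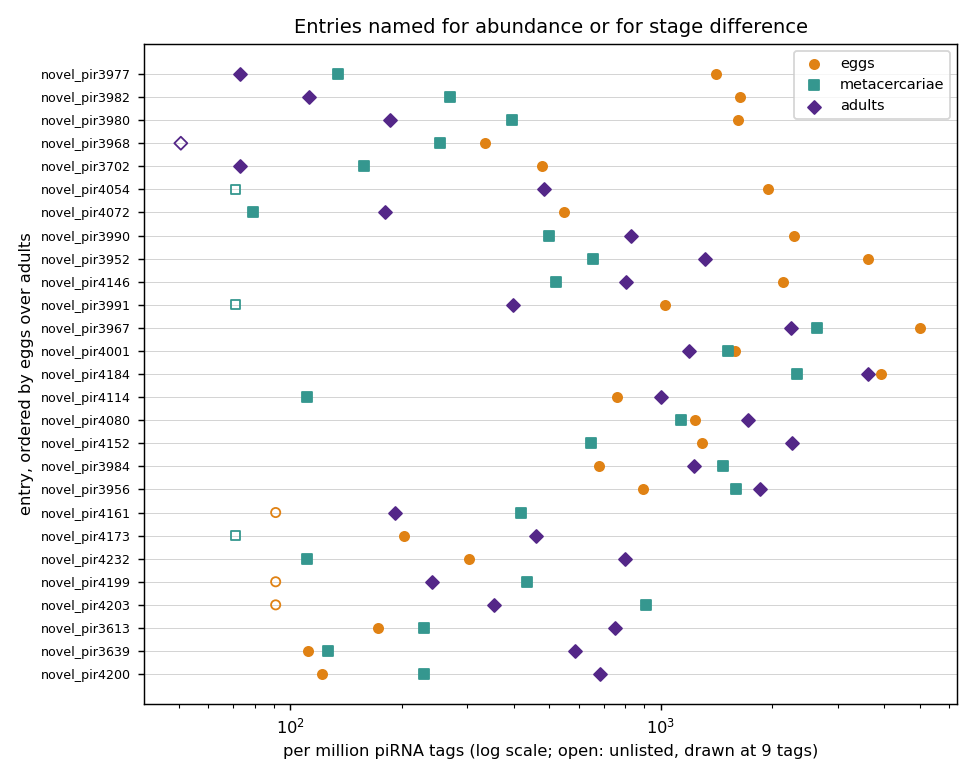
Level in RPM of piRNA tags (log axis) in eggs, metacercariae and adults for the entries named for abundance or for a stage difference, ordered by eggs over adults. Open symbols are unlisted and drawn at 9 tags. novel_pir3967 and novel_pir4184 lie at the right in every stage, and novel_pir3977 and novel_pir3982 spread widest between eggs and adults.

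Vesicles shed by adults carried 40 entries of the locus, with 10 to 128 tags and a median of 19. Vesicle entries are numbered anew, so single entries were not matched to those of the stages. The most abundant, novel_pir152 of the vesicle table, held 128 tags or 12.5% of the locus tags (10.5 to 14.7), ahead of novel_pir137 (61), novel_pir156 (49), novel_pir142 (44) and novel_pir151 (43). The top 10 held 49.8% (46.7 to 52.9).

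Per piRNA tag the locus was 1.33-fold higher in vesicles than in adults (1.25 to 1.42), while the ratios of DF142881.1 and DF143043.1 were 0.718 (0.651 to 0.790) and 0.429 (0.374 to 0.491). Per annotated tag the ratios were 0.368 (0.346 to 0.392), 0.198 and 0.119, against 0.276 (0.269 to 0.283) for all piRNAs. The minimum of 10 tags weighed more in vesicles, where it was 4.24 RPM of annotated tags against 0.515 in adults. With adult entries held to the same RPM, which is 82.2 tags, 65 locus entries remained of 440, and the adult share rose from 12.9% to 15.1% (14.9 to 15.4), below the vesicle share of 17.1%. This kept 10649 of the 22873 adult locus tags and 70389 of the 177879 adult piRNA tags. The ratios per annotated tag above therefore compare unlike minimums, and they were not recomputed. DF142881.1 and DF143043.1 were not held to the same RPM, so their ratios per piRNA tag rest on unlike minimums too. Over entries of at least 50 tags the direction of the locus share turned, with 7.47% in vesicles and 14.3% in adults. That cut is again far higher in RPM for vesicles than for adults. Of the vesicle entries of the locus only novel_pir152 (128 tags) and novel_pir137 (61 tags) pass it. In the deposited scaffold table, 2616 vesicle tags mapped to DF143974.1, the 72nd highest of 11816 scaffolds, beside the 1025 tags of the locus entries. Whether those 1025 are all among the 2616 was not tested.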

How the data were processed

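Each deposited table gives raw counts of tags by entry and a normalized column, headed TPM, that equals RPM of annotated tags (count over the total in the file header, times 1000000, to within 0.005). Each stage has 2 deposited tables with identical rows. Aligner, piRNA caller and genome build: not given in the sources used here. In the vesicle library the mapped classes summed to 2339266 tags, and the header total exceeds that sum by 21950, the tags of its predicted miRNA and piRNA entries. Whether the stage totals were built the same way is not known, so every RPM of annotated tags may rest on a total that counts some tags more than once. A column of tags from the vesicles of another species (1 column) stayed unused.

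Entries were matched between stages by number, since their locus names were the same wherever several stages listed a number. Shares carry Clopper-Pearson intervals and ratios exact conditional binomial intervals. The code of the size rule was tested on simulated data with counting noise only, which says nothing of the spread between libraries. No p-value was computed. Alternatives used TMM factors (edgeR 4.0.16), median-of-ratios size factors (DESeq2 1.42.0), other totals, minimums and pseudocounts, with scipy 1.17.1. For TMM, unlisted entries were set to 9 tags, which is 91.2 RPM of piRNA tags in eggs and 50.6 in adults. How far that moved the factors was not tested. Size factors rested on the 2070 of 5927 piRNA entries listed in all 3 stages. Relative to the piRNA total, TMM, size factors and the annotated total moved every log2 ratio by -0.39, -0.25 and -0.93 for eggs over adults, by -0.21, -0.12 and -0.57 for metacercariae over adults, and by -0.18, -0.13 and -0.36 for eggs over metacercariae.

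Named entries were the 5 most abundant per stage, the 5 largest folds each way per pair among those counted, and the 3 most abundant listed in 1 stage only. Leading vesicle entries are named likewise. The locus, its comparison loci and these rules were chosen with earlier results of these data known.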

Additional observations from a re-analysis of the deposited data

How the results depend on the processing

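No paired analysis was possible because every group consists of 1 library without a replicate number. The direction of eggs against adults turned with scaling, from a ratio of 1.18 to 0.616 per annotated tag and 0.895 with TMM. With size factors the ratio was 0.988, close to 1 and without an interval. Metacercariae stayed below adults and eggs above metacercariae under all settings. In the order eggs over adults, metacercariae over adults and eggs over metacercariae, the ratios were 1.21, 0.726 and 1.66 against piRNA tags outside the locus, 1.21, 0.664 and 1.82 over entries of at least 50 tags, and 1.07, 0.780 and 1.37 over entries listed in all 3 stages. For the last 2 pairs they were 0.506 and 1.22 per annotated tag, 0.650 and 1.38 with TMM and 0.691 and 1.43 with size factors. Without the most abundant entry they stayed within their intervals.

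Counts of entries higher and lower, in the same order of pairs, were 12 and 8, 1 and 18, 15 and 5 with TMM, and 16 and 5, 1 and 12, 16 and 3 with size factors. They were 2 and 3, 0 and 4, 3 and 1 per annotated tag, and 3 and 36, 0 and 39, 13 and 7 with a pseudocount of 0.01 RPM as well, a setting chosen after seeing the data, as were both factor scalings of the locus ratio. With unlisted entries at 0 tags they were 106 and 87, 70 and 145, 164 and 71, and with a fold of at least 2 they were 135 and 43, 44 and 78, 122 and 30. At 50 tags or more in the higher library, 9, 0 and 17 entries were higher, and a pseudocount of 10 RPM left 1 higher in metacercariae than in adults. For none of these settings was the share among all piRNA entries computed. Whether the locus keeps its difference from them is therefore not known.

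Entries with at least 20 tags numbered 222 in eggs, 202 in metacercariae and 311 in adults, and 328 adult entries passed the common minimum in RPM of piRNA tags. In the same order, the top 10 entries held 33.9%, 34.7% and 24.1% of the tags of entries with at least 50, and 15.6%, 14.6% and 13.6% without the first. Over piRNAs of at least 50 tags the locus share was 17.2%, 9.49% and 14.3%, and 7.47% in vesicles, where few entries pass that minimum. All entries on the scaffold gave 13.0% in adults and 19.4% in vesicles, and the adult share at the vesicle minimum, also chosen after seeing the data, was 15.1%. Depth limits the vesicle values most, since 10 tags there are 1673 RPM of piRNA tags.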

Other observations

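Besides the locus, scaffold DF143974.1 carried 2 shorter Gypsy loci on the same strand. The one from 112611 to 113114 held 25 tags over 2 entries in eggs, 118 over 6 in metacercariae and 91 over 5 in adults. In vesicles a single entry of it, novel_pir122 of the vesicle table, held 134 tags, more than any entry of the large locus there, and the ratio of vesicles over adults was 12.1 per annotated tag (9.20 to 16.0). The one from 132887 to 133279, just upstream of the large locus, held 37, 45 and 196 tags and was unlisted in vesicles. These loci were chosen after their values were seen.

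Entries novel_pir4073 and novel_pir4080 had counts 1 apart in each stage library, namely 121 and 122 for eggs, 142 and 143 for metacercariae, and 305 and 306 for adults. Among the 52 piRNA entries with at least 100 tags in each stage, this was the only pair within 1 tag in all 3. Whether the 2 entries share tags was not tested.

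Of the 12 entries higher in eggs than in both other stages, 5 carry numbers from 3972 to 3989 (novel_pir3972, novel_pir3977, novel_pir3980, novel_pir3982 and novel_pir3989). The 18 entries of that run held 1191 egg tags, 600 of metacercariae and 804 of adults. This was 7.99%, 4.91% and 3.52% of the locus tags of those stages, a ratio of 2.67 per piRNA tag for eggs over adults (2.44 to 2.92). The run was chosen after its values were seen, and whether numbers follow position along the locus was not tested.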
